A study of Oryza sativa with 2 samples.

Results

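RR6 and RR9 are type A response regulators of rice, small proteins of the cytokinin pathway. They were taken by name: a probe of 1 gene was kept where the gene's symbol or a synonym, without the prefix Os, is RR6 or RR9. This gave 2 genes of the 15798 measured, RR6 (LOC4337372) and RR9 (LOC4349747), each with 1 probe. The genes were chosen by their ratios on these same 2 arrays, which an earlier reading had found large, so the ratios are described here and were not tested.

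The RNA came from rice (Oryza sativa) seedlings aged 7 days. Treated seedlings had been exposed to jasmonic acid, a hormone of wounding and defence, at 5 µM, and control seedlings had received none; all were raised in a growth chamber on MS medium. The titles speak of shoots and the design of whole seedlings, and the length of the exposure is given in 2 ways that conflict. Treated and control RNA were hybridised together on 2-colour arrays: on array 1 treated RNA carried Cy5 and control RNA Cy3, and on array 2 treated RNA carried Cy3 and control RNA Cy5. The 2 arrays carry 1 replicate number, so they count as 1 replicate, and no spread between plants can be given.

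Cytokinins are plant hormones that promote cell division and shoot growth and delay leaf ageing. Membrane histidine kinases sense them and pass a phosphate through phosphotransfer proteins to response regulators in the nucleus. Type B response regulators are transcription factors that switch on early cytokinin target genes, among them the type A genes. Type A response regulators have the phosphate-receiving domain but no DNA-binding domain, and they damp the pathway, so that their transcripts are widely used as a readout of cytokinin signalling. In rice, plants that overproduce RR6 respond poorly to cytokinin, and RR9 has a close relative, RR10.

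Some facts of the whole series bear on every value below. Brightness stands for the log2 geometric mean of the whole numbers whose ratio is a deposited value, a lower bound on signal. Gene names rest on a rearranged spot grid that was found from these same data and that no source states. Control-like spots had a brightness over 4.5 and a log2 ratio under −2.2 on each array. With the grid 0 of the 228 such spots fell on a feature with a gene, against 194 with the spot numbers as they stand. These counts come from the same data and are not an independent check of the grid. The numerator of the deposited ratios is not stated either, so no direction of the treatment is settled. Over all 22575 spots the 2 columns had a Pearson correlation of 0.54, but −0.72 in the brightest 10% of them. The median log2 ratio was −0.30 on array 1 and −0.32 on array 2. Leaf markers gave bright spots, with a brightness of 11.5 to 14.7 over 5 genes (log2 scale; it is set by the probe as well as by the transcript). The 5 measured root markers ran from 2.74 to 8.98, with a median of 4.83 and the silicon transporter LSI1 at the top, and the 4 seed and aleurone markers from 1.73 to 5.55. RR6 had a brightness of 5.75 and RR9 of 5.53, near the 5.47 of the median gene. These are means of the 2 arrays. On arrays 1 and 2 RR6 had 5.89 and 5.61, and RR9, less even, had 4.35 and 6.71.

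RR6 had opposite values on the exchanged arrays. The deposited ratio was 0.477 on array 1, the whole-number ratio 41 to 86, and 1.66 on array 2, the ratio 63 to 38. On the log2 scale these are −1.07 and 0.73. The numerator channel thus gave the dimmer signal on array 1 and the brighter one on array 2.

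RR9 had the same pattern. Its deposited ratio was 0.406 on array 1, or 13 to 32, and 1.48 on array 2, or 127 to 86. The log2 ratios were −1.30 and 0.56. Array 1 lay further from 0 than array 2 in both genes. These whole numbers are reduced fractions, so they only bound the signals from below.

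What the ratios say of the treatment depends on the numerator. If it was Cy5 on both arrays, treated over control was 0.477 and 0.603 for RR6 and 0.406 and 0.677 for RR9, lower in treated seedlings on both arrays. If it was Cy3 on both, treated over control was 2.098 and 1.66 for RR6 and 2.46 and 1.48 for RR9, higher in treated seedlings on both arrays. If each column was treated over control, the 2 arrays disagreed in direction, with 0.477 and 1.66 for RR6 and 0.406 and 1.48 for RR9. With control over treated in each column they would disagree as well. In RNA of whole tissue, fewer cells that make a transcript and less of it per cell cannot be told apart.

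The swap mean, the average of the array 1 log2 ratio and the array 2 log2 ratio with its sign turned, was −0.90 for RR6 and −0.93 for RR9. This is a size of 1.86-fold and 1.91-fold, and the sign becomes positive if the numerator is the other dye. The SD between array 1 and turned array 2 was 0.24 for RR6 and 0.52 for RR9, a technical spread only. RR9 and RR6 differed by −0.03 in their swap means, less than either spread. The plain mean, with no sign turned, was −0.17 for RR6 and −0.37 for RR9.

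**Figure D1:**
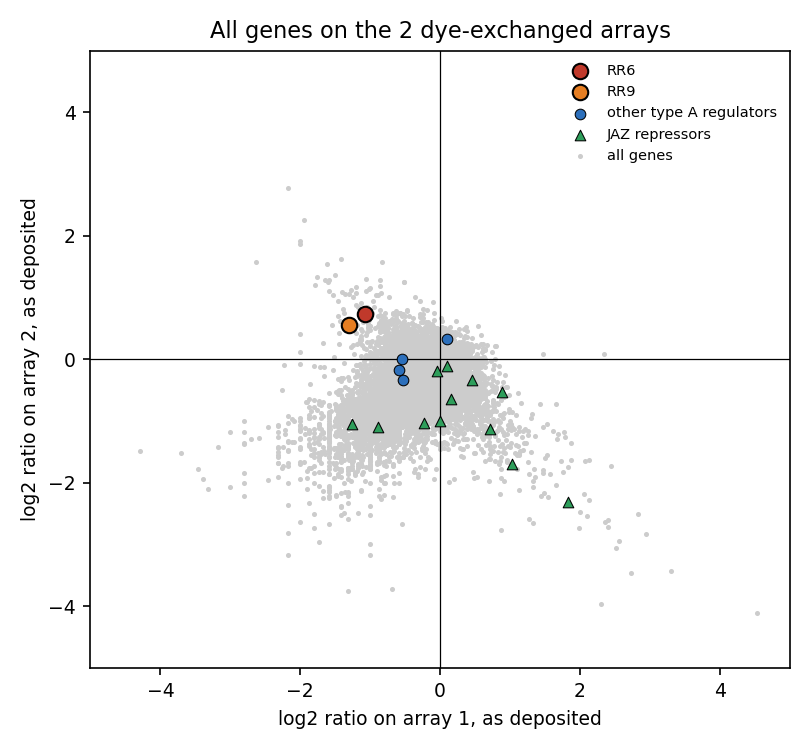
Each point is a gene, with its deposited log2 ratio on array 1 (horizontal) and on array 2 (vertical); RR6, RR9, the 4 other measured type A response regulators and the 12 measured JAZ repressors are marked among all 15798 genes. RR6 at −1.07 and 0.73 and RR9 at −1.30 and 0.56 lie together in the upper left, while JAZ8 at 1.82 and −2.32 lies at the lower right.

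Both arrays had most genes below a ratio of 1, which bears on the unequal values of the 2 arrays. After each array was centred on its median, RR6 had −0.77 on array 1 and 1.05 on array 2, and RR9 had −1 and 0.88. The SD between array 1 and turned array 2 was then 0.20 for RR6 and 0.09 for RR9. The swap means were hardly touched, at −0.91 for RR6 and −0.94 for RR9.

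Set against all genes, both genes stood further out on array 2 than on array 1. On array 1, 5.42% of all genes had a log2 ratio at or below that of RR6 and 2.92% one at or below that of RR9. On array 2, 0.424% had one at or above RR6 and 0.823% one at or above RR9. By swap mean RR9 ranked 55 and RR6 ranked 61 from the lowest of 15798 genes. The ranks depended little on brightness: RR6 was at percentile 0.446 of the 3363 genes within 0.5 of its brightness, and RR9 at percentile 0.288 of 3475. Without a settled numerator, these are ranks on the array 2 side, meaning a ratio under 1 on array 1 and over 1 on array 2.

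A call was set at 1.5-fold in opposite directions on the 2 arrays. RR6 passed it on the array 2 side, as did 0.513% of all genes (81 of 15798). RR9, at 1.48-fold on array 2, missed it narrowly. RR9 passed after centring, when 79 genes did, and neither gene passed 2-fold on both arrays, where 0.165% of all genes did. Since these values led to the choice of the genes, nothing is read from the calls.

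Each gene rests on a single probe, so no other probe of RR6 or RR9 can repeat its value. Among other genes, 164 had 2 probes (the first 2 by feature number) that both lay between 5 and 6.5 in brightness, the range of RR6 and RR9. The difference of the swap means between such probes had a spread of 0.17 (scaled median absolute deviation), and 2 of the 164 pairs differed by 0.9 or more. In the same range of brightness, 17 of 5011 genes had a swap mean at or below that of RR6, and 49 had one of at least that size on the array 1 side. RR10, the close relative of RR9, has no probe of its own among those named here, and whether its transcript adds to the RR9 spot was not tested.

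The spots lie far apart on the array, 67 lines from each other in the rearranged grid. The 24 spots around RR6 had swap means from −0.34 to 0.37, with a median of −0.02. The 24 spots around RR9 had swap means from −0.61 to 1.70, with a median of −0.09. None of these spots was as low as the gene in their midst. RR6 and RR9 were chosen for their ratios and lie at percentiles 0.380 and 0.342 of all genes by swap mean. Few spots anywhere are as low, so nothing is read from this. With the local median of each array subtracted, the swap mean was −0.86 for RR6 and −0.78 for RR9.

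**Figure D2:**
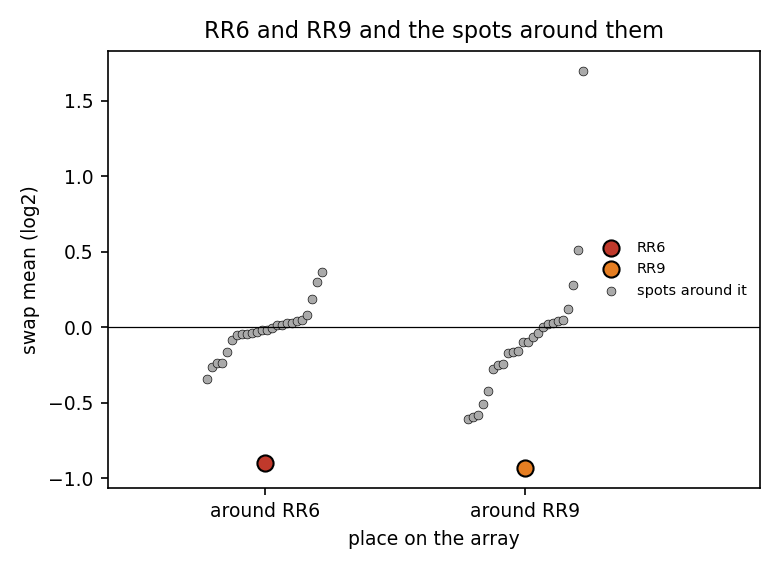
Swap means (log2, vertical) of RR6 and of RR9 as large points, and of the 24 spots nearest to each on the array as small grey points, spread sideways in order of value. RR6 at −0.90 and RR9 at −0.93, both chosen for their ratios, lie below every spot around them. The lowest of these spots are −0.34 near RR6 and −0.61 near RR9.

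Genes next to RR6 and RR9 on the chromosomes were looked at as well. Of the 20 genes within 10 places of RR6 in the RefSeq gene order, 13 were measured, with swap means from −0.15 to 0.63. None of the 13 passed 1.5-fold on either side, which is near the background of 0.513% and 1.4% of all genes on the array 2 and array 1 sides. Of the 20 around RR9, 2 were measured, at 0.04 and 0.05.

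The other type A response regulators lay on the same side of 0, with smaller values. The reference names 10 type A genes, and 6 were measured: RR6, RR9 and 4 more. RR4 stood at −0.54 on array 1 and at 0 on array 2 (log2 ratios). Its swap mean was −0.27. A ratio of exactly 1 reduces to 1 over 1, so its brightness of 1.86 is a loose lower bound. For RR1 the log2 ratios were −0.58 and −0.18 and the swap mean −0.20. RR5 stood at 0.10 and 0.32, which averages to −0.11 with array 2 turned, and RR2 at −0.53 and −0.34, which averages to −0.10. By swap mean RR5 lay at percentile 23.4 of all genes and RR2 at percentile 25.7, so these values were common. All 6 swap means were thus below 0, as were 48.1% of those of all genes, and their median was −0.24 against 0.01 for all genes. Without RR6 and RR9, chosen for their values, the median of the 4 was −0.16, and RR4, the lowest of them, ranked 1205 from the lowest of all genes. In none of the 4 were the deposited ratios on opposite sides of 1, as they were in RR6 and RR9. This depends on the array medians. After centring, RR4 had −0.24 and 0.32 and RR1 −0.29 and 0.14, on opposite sides of 0 as in RR6 and RR9. RR2 had −0.23 and −0.02 and RR5 0.40 and 0.64, on the same side of 0 on both arrays.

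**Figure D3:**
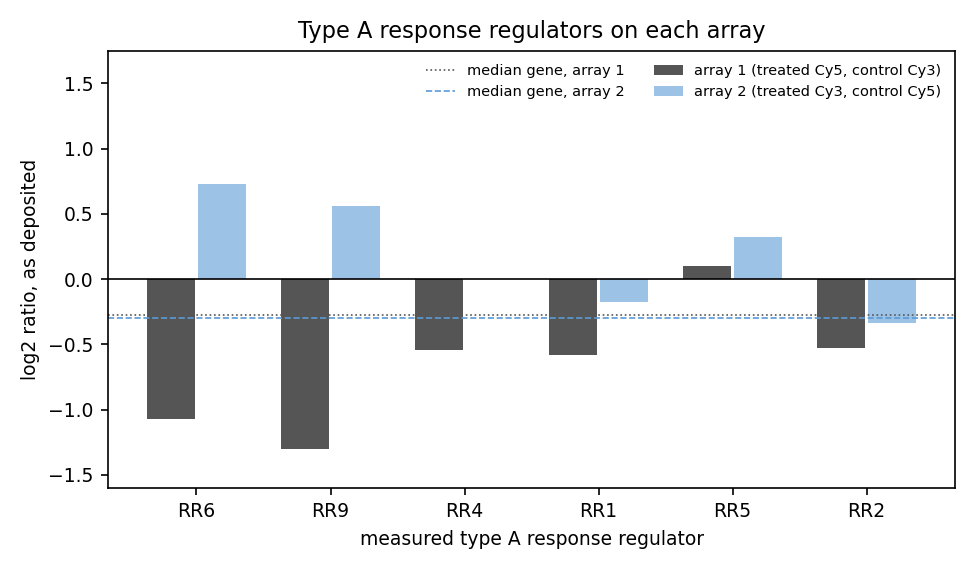
Deposited log2 ratios (vertical) of the 6 measured type A response regulators on array 1 (dark bars) and array 2 (light bars); dotted and dashed lines mark the median gene of each array, at −0.27 and −0.30. RR6 and RR9 have bars on opposite sides of 0, RR1 and RR2 are below 0 and RR5 above 0 on both arrays, and RR4 has no visible bar on array 2 because its value is 0.

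Other genes of the cytokinin pathway lay on both sides of 0. Of 43 named cytokinin genes 28 were measured, RR6 and RR9 included. The other 26 had 12 swap means below 0 and 14 above, with a median of 0.03. Over all genes 48.1% of the swap means were below 0, and the median was 0.01. None of the 26 passed 1.5-fold on either side, near the shares of all genes that did, 0.513% (array 2 side) and 1.4% (array 1 side). Among receptors, which bind the hormone, HK3 had a swap mean of 0.12 and HK4 of 0.20. The phosphotransfer list ranged from −0.14 for HP2 to 0.21 for PHP5, a pseudo-phosphotransfer protein by its name. The 5 measured type B regulators, the activators of type A genes, ranged from −0.10 for RR33 to 0.29 for RR23, and all 5 had ratios below 1 on both arrays, as did 66.7% of all genes.

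Genes that set the amount of active cytokinin lay on both sides. The LOG family releases active cytokinin from its nucleotide form, and its 8 measured genes had a median of 0.04. The lowest, LOGL3, had a swap mean of −0.55, from −1.05 on array 1 and 0.05 on array 2. The highest, LOGL5, had 0.56, from 0.42 and −0.71. The CKX oxidases break cytokinin down, and their 4 measured genes ranged from −0.33 for CKX1 to 0.53 for CKX5, whose array 1 ratio was exactly 1. The reference matched no name of the lists for synthesis (IPT), transport and glucosylation, which were not analysed here.

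**Figure D4:**
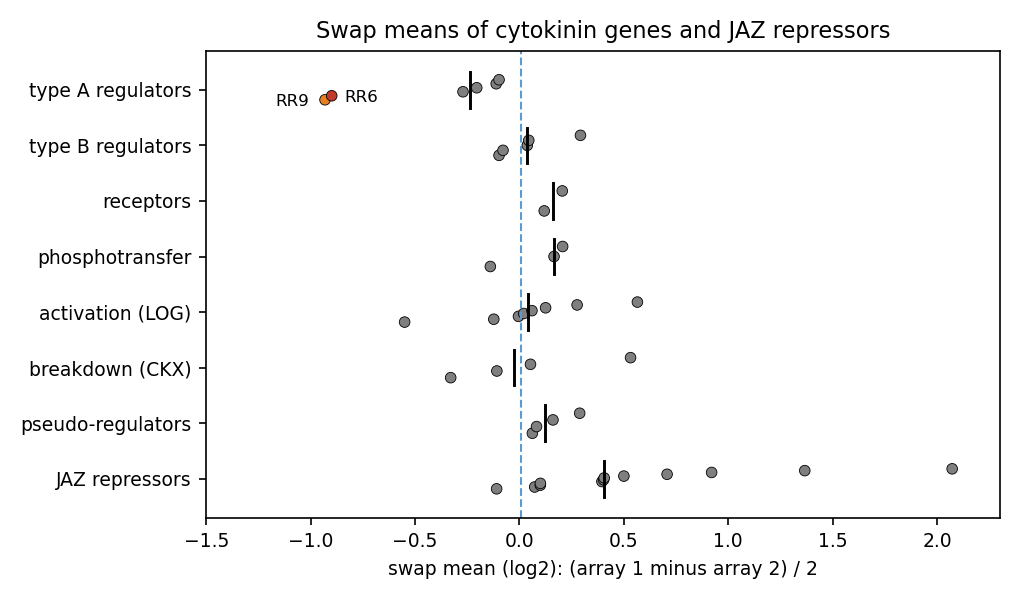
Swap means (log2, horizontal) of the measured genes of each list, 1 point a gene, with a black bar at the median of the list and a dashed line at the median of all genes, 0.01. RR6 and RR9 stand at the left, apart from the 4 other type A genes, which lie between −0.27 and −0.10, and JAZ repressors reach 2.07 at the right.

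Related regulators outside the pathway were set beside them. The 4 pseudo-response regulators, clock proteins with a similar receiver domain, had swap means from 0.06 for PRR37 to 0.29 for PRR1. The 5 ethylene receptors, also of the histidine kinase family, ranged from −0.19 for ETR2 to 0.52 for ERS2.

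JAZ repressors, which hold jasmonate responses in check and whose genes are known to respond to jasmonate, lay on the opposite side from RR6 and RR9. Of 12 measured, 11 had a swap mean above 0, as did 8160 of all 15798 genes. The median of the 12 was 0.40, against 0.01 for all genes. Their swap means ran from −0.11 to 2.07, and their brightness from 0.25 to 9.95. JAZ8, JAZ7 and JAZ11 passed 1.5-fold on the array 1 side, where 1.4% of all genes did. JAZ8 had a swap mean of 2.07, against −0.90 for RR6 and −0.93 for RR9. This opposition holds whichever dye is the numerator, since all signs turn together. Were each column treated over control instead, a swap mean would hold the dye effect of a probe.

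Tissue markers lay on both sides of 0, as did all genes, of which 48.1% had a swap mean below 0. Swap means ran from −0.52 to 1.05 over 5 leaf markers (2 of 5 below 0), from −0.21 to 0.50 over 5 root markers (2 of 5 below 0) and from −0.19 to 0.47 over 4 seed and aleurone markers (3 of 4 below 0). Their part in the values of RR6 and RR9 was not tested.

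The named genes most like RR6 and RR9 were sought by distance in the plane of the 2 log2 ratios, among 1188 genes with a name and at least the median brightness. RR6 and RR9 each lay 0.14 from their mean point. The nearest was CYP88A5, also named KAO, an oxidase of gibberellin synthesis, with −1.20 and 0.42, at 0.22. OsC3H37, of the CCCH zinc finger family by its name, had −1.05 and 0.85, at 0.25. The cell wall invertase CIN2, which splits sucrose, had −1.39 and 0.82, at 0.27. The glutaredoxin family members GRXC1, with −0.95 and 0.85, and GRXC10, with −0.88 and 0.55, followed at 0.31 and 0.32. This likeness covers 2 arrays of 1 replicate and is a description only.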

How the data were processed

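Treated and control rice RNA was measured on 2 dye-exchanged arrays. The deposited values are log10 ratios, 1 per spot and array, for 22575 spots; per the labels, a GenePix scanner and program gave the spot values and GeneSpring version 4 the normalization. The labels do not say which background correction or filters were used, nor which channel is the numerator. Both array medians lay below a ratio of 1, at −0.30 and −0.32 (log2). A centring of each array on a median ratio of 1 is thus not seen in the deposited values. They also trace to whole-number ratios, such as 41 to 86 for RR6 on array 1. What else of that normalization they hold is not known. The values were taken to log2 and otherwise used as deposited. Each value was traced to the simplest fraction of whole numbers within 6e-10 (log10) of it. Brightness is the log2 geometric mean of the terms, averaged over the arrays; arrays carry no counts, and their number limits the precision.

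Row i, from 0, was paired with feature (104 − i mod 105) × 215 + (214 − floor(i / 105)) + 1. Of 17860 annotated features, 17839 had 1 gene, and all matched RefSeq assembly ASM3414082v1, used for names and gene order only. Probes of a gene were averaged. No test was run, as the arrays are 1 replicate. The members and lists were chosen with earlier results of these data known. Named were RR6, RR9, the type A genes, list members past 1.5-fold on opposite sides or at the ends of their list, and the 5 named genes nearest to RR6 and RR9. Alternatives were centring, a running median over brightness (501 spots), scaling, local medians, single arrays, probe choice, thresholds, a brightness filter and names by spot number. The steps were tested on simulated data whose changes were larger than those of RR6 and RR9 and whose arrays had no shifted median. That run does not check the pairing of rows with features. Python 3.11.15, numpy 2.4.6 and pandas 2.3.3 were used.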

Additional observations from a re-analysis of the deposited data

How the results depend on the processing

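The swap means of RR6 and RR9 kept their sign with centring, a running median over brightness, scaling, local medians and the brightest probe. They moved by less than the spread between the arrays as deposited, 0.24 for RR6 and 0.52 for RR9. Local medians took RR9 from −0.93 to −0.78, more than its spread after centring, 0.09. With an array alone the values ran from −1.07 to −0.73 for RR6 and from −1.30 to −0.56 for RR9. With no sign turned RR6 had −0.17 and RR9 −0.37. With names by spot number RR6 turned round, at 0.0788, and RR9 had −0.23, since other spots then carry the names. The count of cytokinin genes past 1.5-fold on the array 2 side, 1 (RR6), was 2 (RR6 and RR9) with centring, a running median, scaling or local medians, 2 at a lower threshold of 0.32 (log2), 0 at 2-fold, 3 lower on both arrays with no sign turned, and 1 to 7 on a single array. The count on the array 1 side, 0, was 1 at that lower threshold and 0 to 8 on a single array. The 81 genes of all on the array 2 side were 26 at 2-fold, 272 at the lower threshold, 1900 lower on both arrays with no sign turned, and 115 to 3207 on a single array. Centring moved the values of an array by 0.30 and 0.32 (log2). Treated and control RNA were paired on each array, but both arrays share 1 replicate number, so no test over replicates was possible.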
